A study of Mus musculus with 9 samples.

Results

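CHD7 peaks were examined at 10 genes that direct endothelial and hemogenic development, Kdr, Flt1, Flt4, Tek, Etv2, Tal1, Lmo2, Cdh5, Pecam1 and Erg. The genes were taken by name, and a peak belonged to a gene when its midpoint fell inside the regulatory domain of that gene. A domain held a basal part reaching 5 kb before and 1 kb past the transcription start site (TSS), and grew on each side until it met the basal part of a neighbour, by at most 1 Mb. Of 3761 CHD7 peaks, 2 fell in the domains of these genes, and both lay in the domain of Flt1. The other 9 genes had none, and of all protein-coding genes 22.7% had a peak in their domain.

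The cells were mouse cardiac progenitor (CP) cells of WT genotype, collected at day 5 of the differentiation of embryonic stem cells to cardiomyocytes. In the paper, day 5 falls between the mesoderm stage and the CP stage of an earlier protocol. CUT&RUN, in which an antibody tethers a nuclease to chromatin and the freed DNA is sequenced, was done with anti-CHD7, with IgG as negative control, and on input with no antibody. Each of these 3 groups had 3 biological replicates, 9 libraries in all, and every library came from WT CP cells at day 5. The authors called peaks in each CHD7 sample against IgG and kept those overlapping in at least 2 replicates, which gave 1 list of positions for the 3 CHD7 replicates together. The list carries no height, score or read count. Reads were not used here, so the depth of the libraries was not examined. From the list alone, no replicate error can be given for any value. A gene without a peak is one whose domain held none called in at least 2 replicates, though one may lie nearby outside it. The list also holds no expression values, so markers of endothelial, blood or cardiac cells could not be checked in these cells.

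CHD7 is an ATP-dependent chromatin remodeller that moves nucleosomes and is often found at enhancers far from genes. Endothelial and blood cells arise from mesoderm that carries the VEGF receptor encoded by Kdr, and cardiac progenitors pass through a Kdr-expressing stage as well. In the hemogenic branch the ETS factor Etv2 acts early, and Tal1, Lmo2 and Erg act after it, while Flt1, Flt4, Tek, Cdh5 and Pecam1 encode receptors and junction proteins of the endothelium.

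The sequences of both Flt1 peaks are shown because they are the only peaks that the rule gave to any of the 10 genes. They are read from the plus strand of GRCm38.p6 (mm10), 5′ to 3′, while Flt1 itself is on the minus strand. The first is the central 300 bases of peak1185 (peaks are numbered by their order in the list), chr5:147507786-147508085, in intron 5 of Pan3. The second is chr5:147639133-147639400, the 268 bases of peak1186 that lie outside any annotated UTR, in the body of Flt1. Capitals mark matches to any of 8 consensus motifs, searched on both strands. The letters were AGATAA for GATA factors, GGAAGT for ETS, AACAGGAA for the composite FOX:ETS motif, GTAAACA for forkhead, CAGATG for an E-box, ACAATGG for SOX, GTGGGAA for RBPJ and GGAATG for TEAD. Because the ETS and TEAD letters begin with the GGAA that ends the FOX:ETS and RBPJ letters, a match to one of these can overlap a match to another.
Flt1 peak1185: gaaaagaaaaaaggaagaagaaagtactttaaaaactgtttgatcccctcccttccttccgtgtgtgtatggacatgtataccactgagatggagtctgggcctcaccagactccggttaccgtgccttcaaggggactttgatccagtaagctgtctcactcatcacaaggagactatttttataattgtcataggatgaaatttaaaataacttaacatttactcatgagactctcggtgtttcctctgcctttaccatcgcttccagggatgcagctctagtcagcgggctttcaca
Flt1 peak1186: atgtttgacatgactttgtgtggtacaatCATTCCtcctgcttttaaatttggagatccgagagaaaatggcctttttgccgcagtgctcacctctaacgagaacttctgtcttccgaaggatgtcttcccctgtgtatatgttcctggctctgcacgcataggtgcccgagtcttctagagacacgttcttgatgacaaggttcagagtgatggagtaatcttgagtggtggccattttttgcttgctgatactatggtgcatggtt

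In the 200 bp around the midpoint, neither Flt1 peak held any of the 8 motifs. Over all 3761 peaks the same window held the GATA letters in 11.8%, ETS in 14.0%, FOX:ETS in 1.89%, forkhead in 3.14%, the E-box in 16.4%, SOX in 3.22%, RBPJ in 4.60% and TEAD in 11.8%. The capitals in the peak1186 sequence are a TEAD match on the minus strand that starts 123 bp from the midpoint, outside the 200 bp window. A TEAD match in the 500 bp around the midpoint, 250 bp on each side, was present in 26.3% of all peaks. With the shorter letters GATAA, peak1186 had a match in its 200 bp window, as did 24.5% of all peaks. These matches describe the letters only, and nothing about a factor follows from their presence or absence.

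Among the 10 genes, 1 (10%) had a peak in its regulatory domain, beside 4979 of 21911 protein-coding genes (22.7%). Their domains summed to 3308441 bp and held 0.605 peaks per Mb, against 1.48 peaks per Mb over the domains of all genes. The median domain of the 10 genes was 246374 bp and that of all genes 90166 bp, with Etv2 and Tal1 under the median of all genes. None of the 10 had a peak in its basal domain, where 3.16% of all genes had one. In the gene body, Flt1 alone had a peak, beside 8.09% of all genes. With 10 genes, each gene changes the share by 10 percentage points, and whether the genes differ from others was not tested.

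**Figure D1:**
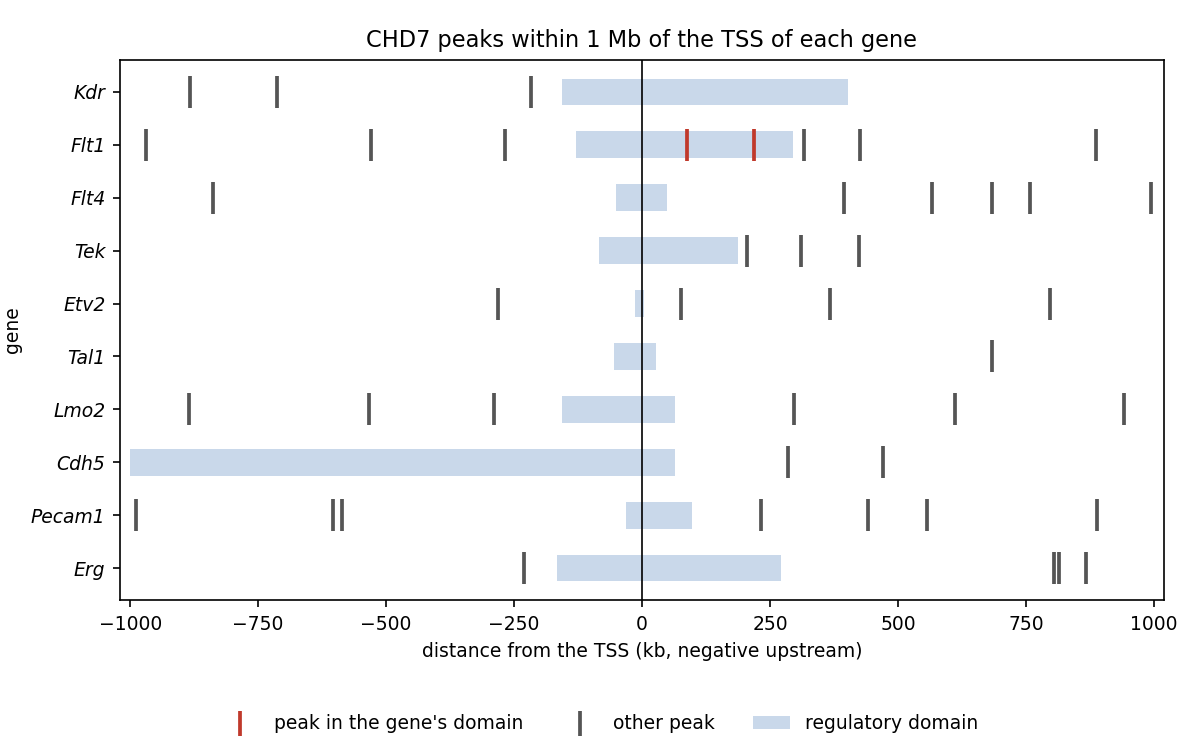
Peaks within 1 Mb of the TSS of each of the 10 genes, by distance from the TSS in kb (negative is upstream in the direction of the gene). Bars are the regulatory domains, red marks the 2 peaks inside a domain, both at Flt1, and grey marks the other peaks.

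The receptor genes are those for the VEGF family, Flt1, Kdr and Flt4, and the angiopoietin receptor gene Tek. Flt1 encodes VEGF receptor 1, which binds VEGF-A tightly and also occurs as a short, secreted form that acts as a decoy. It lies at chr5:147561604-147726011 on the minus strand, with a domain of 424299 bp between Pomp, a proteasome assembly factor gene upstream, and Pan3, which encodes a subunit of an mRNA deadenylase, downstream. Flt1 was 1 of 1288 genes (5.88%) with 2 or more peaks.

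The nearer Flt1 peak, peak1186 at chr5:147638678-147639400, had its midpoint 86972 bp downstream of the TSS, inside the gene. It was 723 bp wide, close to the median of 703 bp over all peaks, with a GC content of 44.5% (median of all peaks 47.5%) and 11.1% of its bases masked as repeats (median 13.2%). The peak covered 176 bases of exon 13 of the full-length transcript, which has 30 exons. It also lay wholly inside the last exon of a shorter coding transcript with 13 exons, in which exon 13 runs on past the splice site, and spanned the end of its coding sequence. In that transcript 268 bases of the peak were coding and 455 bases were 3′ UTR, with the midpoint in the UTR. A noncoding Flt1 transcript starts 4621 bp from the midpoint, the nearest TSS of any protein-coding gene's transcripts. Of all gene and peak pairs, 60.9% were nearer to their TSS than this one, and the median distance was 57398 bp.

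The farther Flt1 peak, peak1185 at chr5:147507635-147508235, had its midpoint 218076 bp downstream of the Flt1 TSS, past the 3′ end of the gene and in intron 5 of Pan3. It was 601 bp wide, its GC content was 44.6%, and repeats took up 43.1% of it, more than in 89.8% of all peaks. A TSS of Pan3 lay nearest to it, at 9567 bp. Both Flt1 peaks were also in the domain of Pan3, which held 3 peaks, and 82.3% of gene and peak pairs were nearer than peak1185 and Flt1. The position alone does not tell which of the 2 genes, if either, the peaks act on. Within 500 kb of the Flt1 TSS there were 5 peaks, the most among the 10 genes, and Pomp had none in its domain.

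Kdr encodes VEGF receptor 2, the main signalling receptor for VEGF-A, and lies at chr5:75932827-75978458 on the minus strand. Its domain of 559315 bp, the longest of the 4 receptor genes, held no peak. The nearest was peak1027, 216014 bp upstream in intron 1 of Tmem165, with the TSSs of 2 other genes in between. On the downstream side the first peak was 1101248 bp away. The stretch of 1.32 Mb between these peaks also spans Kit, the stem cell factor receptor gene next to Kdr, which had no peak in its own domain of 820558 bp and none within 500 kb. Of the genes that lie between 2 peaks, 35.1% were in a longer stretch than Kdr.

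Flt4 encodes VEGF receptor 3, the receptor for VEGF-C in lymphatic endothelium, and lies at chr11:49609263-49652739. Its domain covered 100731 bp, and the nearest peak, peak2319, was 394627 bp downstream, outside protein-coding genes and in the domains of Rasgef1c and Rnf130. Tek encodes the angiopoietin receptor TIE2 and lies at chr4:94739289-94874976. The Tek domain reached 188493 bp downstream, and the nearest peak, peak827, was a little beyond it at 204310 bp, in a UTR of Mysm1, which encodes a histone deubiquitinase. Upstream of Tek no peak was met for 1572951 bp, and 27.3% of the genes between 2 peaks were in a longer gap. Of the 4 receptor genes, Flt1 thus had 2 peaks and Kdr, Flt4 and Tek had none, beside 22.7% of all genes with a peak.

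The transcription factor genes were Etv2, Tal1, Lmo2 and Erg, and none of their domains held a peak, beside 22.7% of all genes with one. Among all genes of like domain length the share was 7.24% for Etv2, 13.7% for Tal1, 29.1% for Lmo2 and 46.5% for Erg. Etv2, an ETS factor that starts the endothelial and blood programme, is a gene of 2237 bp at chr7:30633616-30635852 in a gene-dense stretch. Its domain was only 18165 bp long, with Cox6b1 and Rbm42 on either side. The nearest peak, peak1447, was 76187 bp downstream with 8 TSSs in between, and lay 6 bp from a TSS of Lin37. Of all genes, 30.5% had a nearer peak than Etv2, and for none of the other 9 genes was this share lower.

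Tal1 encodes a basic helix-loop-helix factor needed for all blood lineages and lies at chr4:115056426-115071755. No peak was found within 500 kb of its TSS, the only such case among the 10 genes. The nearest one, peak853 in intron 2 of Efcab14, was 684822 bp downstream, and upstream the first peak was 4448576 bp away. The gap around Tal1 thus measured 5.13 Mb, and 8.22% of the 21057 genes that lie between 2 peaks were in a longer one.

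Lmo2 encodes a LIM-domain adaptor that joins TAL1 to GATA factors on DNA and lies at chr2:103957986-103981878. It sat nearly midway between peak407, 289835 bp upstream in intron 1 of Abtb2, and peak408, 297842 bp downstream. Both were outside its domain of 220071 bp, which is bounded by Caprin1 and Fbxo3. Erg, an ETS factor that maintains endothelial identity, lies at chr16:95359169-95586593 and had a domain of 438423 bp with no peak. The nearest peak to Erg, peak3354, was 231035 bp upstream, beyond the TSS of its neighbour Ets2, and belonged to the domains of Ets2 and Psmg1. On the other side of Erg the first peak was 805921 bp away.

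The junction and adhesion genes were Cdh5 and Pecam1, and neither had a peak in its domain, beside 22.7% of all genes with one. Cdh5 encodes VE-cadherin, the adhesion molecule of endothelial adherens junctions, and lies at chr8:104101625-104144511. Its domain was the longest of the 10, 1063888 bp, because the next TSS upstream, that of Cdh11, was 1315983 bp away. The first peaks were 286112 bp downstream, in intron 1 of Cmtm4, and 4403768 bp upstream, a gap of 4.69 Mb. Pecam1 encodes the adhesion molecule CD31 of endothelial and blood cells and lies at chr11:106654217-106750628, with a domain of 128309 bp. The nearest peak, peak2500, was 233406 bp downstream in intron 1 of Ern1, and belonged to the domains of Ern1 and Icam2.

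Because the domain rule stops at the next gene, distances that ignore other genes were also taken. All of these except the 100 kb window at the 10 genes were chosen after seeing the data. Within 100 kb of the TSS, Flt1 and Etv2 had a peak, 2 of 10 genes, beside 36.8% of all genes. Within 250 kb the number was 6 of 10, with Kdr, Tek, Pecam1 and Erg added, beside 61.4% of all genes. Within 500 kb it was 9 of 10, all but Tal1, beside 77.3% of all genes. The number of peaks within 500 kb had a median of 2 in the 10 genes and of 2 in all genes. The median distance to the nearest peak was 232220.5 bp for the 10 genes and 166055 bp for all genes, and 8 of the 10 were farther from a peak than the median gene. The gap between the peaks on either side of the TSS had a median of 1.13 Mb for the 10 genes. It was 0.814 Mb for the 21057 genes that lie between 2 peaks.

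**Figure D2:**
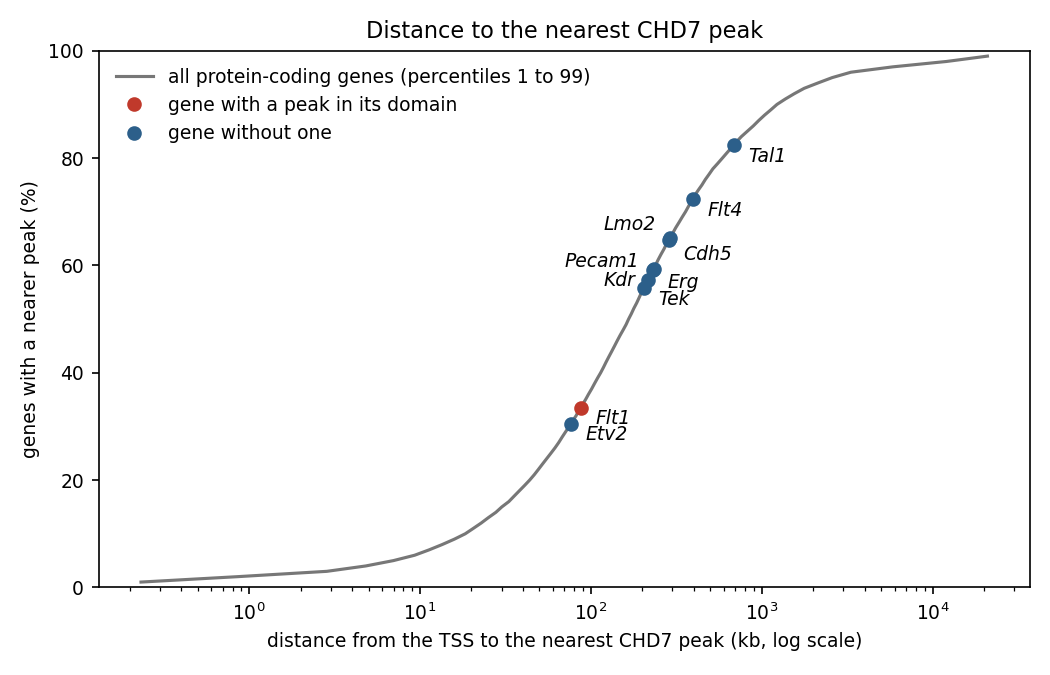
Distance from the TSS to the nearest peak (kb, log scale) against the percentage of protein-coding genes with a nearer one, with percentiles of all genes as the grey line. Etv2, at 76187 bp, and Flt1, at 86972 bp, were nearest to a peak, and Tal1, at 684822 bp, was farthest.

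The share of genes with a peak rose with the length of the domain up to 1000 kb and was lower again above that, in classes chosen after seeing the data. Of all genes with a domain under 30 kb, the class of Etv2, 7.24% had a peak. From 30 to 100 kb, the class of Tal1, the share was 13.7%. Flt4, Tek, Lmo2 and Pecam1 fell in the class from 100 to 300 kb, where 29.1% of all genes and none of these 4 had a peak. Kdr, Flt1 and Erg fell between 300 and 1000 kb, where the share was 46.5%, and 1 of the 3 had peaks. Above 1000 kb, the class of Cdh5, it was 40.7%.

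**Figure D3:**
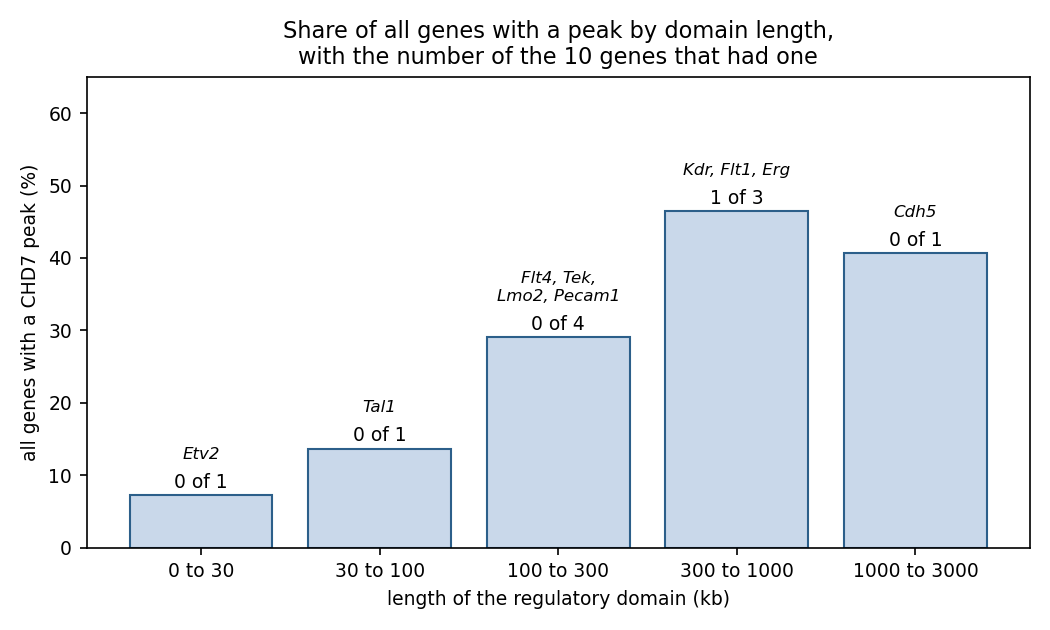
Percentage of all protein-coding genes with a CHD7 peak (bars) by length of the regulatory domain in kb. The numbers above the bars give how many of the named genes of that class had a peak, which was 1 of 3 between 300 and 1000 kb and none in the other classes.

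Of 20 neighbouring genes, 1 on either side of each of the 10, 3 had a peak in their domain, beside 22.7% of all genes. These were Pan3 beside Flt1, Eqtn beside Tek, and Ets2 beside Erg. The neighbours without a peak included Kit beside Kdr, Stil and Pdzk1ip1 beside Tal1, Caprin1 and Fbxo3 beside Lmo2, Cdh11 and Bean1 beside Cdh5, and Tex2 and Milr1 beside Pecam1.

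The wider pathways were described with 4 lists of 66 genes, of which 20 (30.3%) had a peak, beside 22.7% of all genes, with 36 peaks in all. Of these peaks 15 were in an intron by their midpoint (41.7%, all peaks 44.3%) and 17 outside protein-coding genes (47.2%, all peaks 46.8%). Their median width was 669 bp and their median GC content 48.5%, beside 703 bp and 47.5% over all peaks. None of the 66 genes had a peak in the basal domain of the TSS used, beside 3.16% of all genes. The lists differed in their shares, and with 11 to 25 genes each, 1 gene more or less moves a share by several percentage points.

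**Figure D4:**
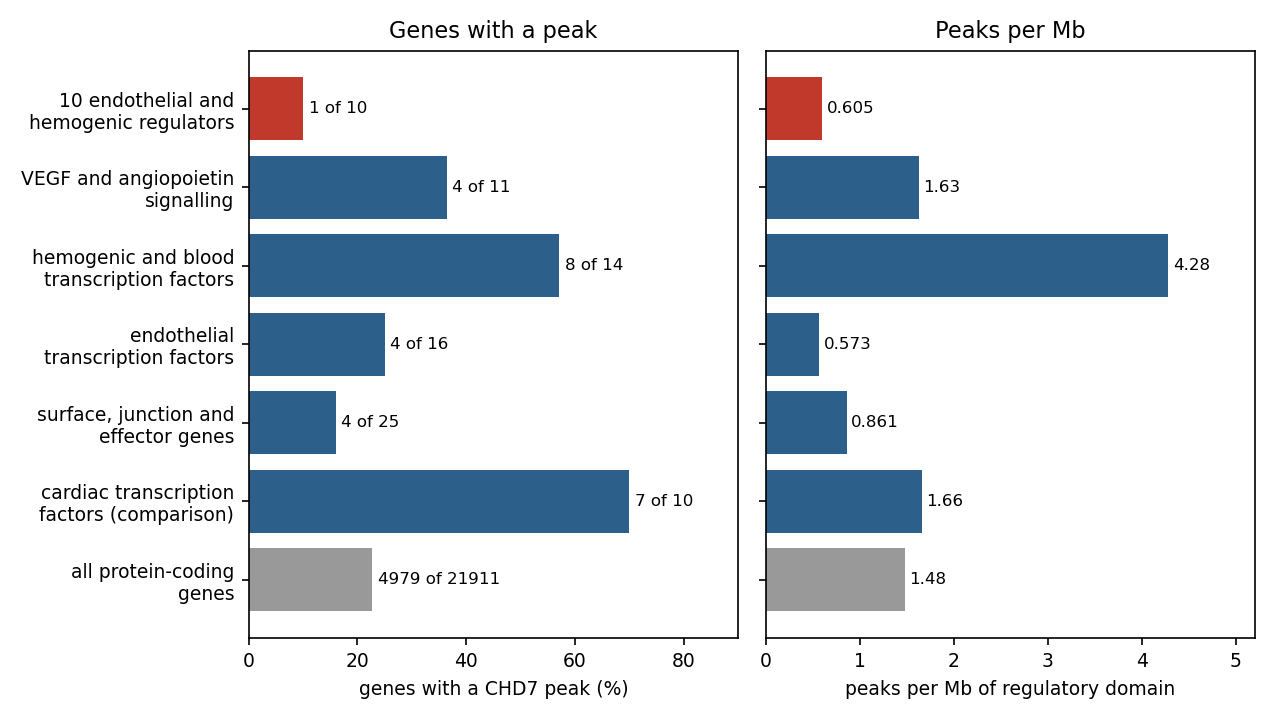
Percentage of genes with a CHD7 peak (left, with the counts) and peaks per Mb of regulatory domain (right) for the 10 regulators (red), the 4 pathway lists and the cardiac comparison list (blue), and all protein-coding genes (grey). Hemogenic and blood transcription factors stood at 8 of 14 genes and 4.28 peaks per Mb, and the 10 regulators at 1 of 10 and 0.605.

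Sequences are shown for list peaks that were within 15 kb of the TSS, or that were the nearest peak to 1 of the 10 genes. They are 200 bases of each peak, as near to its midpoint as the annotated UTRs allow, on the plus strand of GRCm38.p6, and capitals mark the same 8 motifs. The peak of Lyl1 met the same rule but lies wholly in UTR sequence and is not shown. Nrp1 peak1830 is at chr8:128362378-128362577 in intron 1 of Nrp1, and Eng peak305 at chr2:32655656-32655855 in intron 1 of Eng. Spi1 peak384 is at chr2:91082504-91082703 and Spi1 peak385 at chr2:91101613-91101812, both in introns of Spi1. Etv6 peak1374 is at chr6:134038778-134038977 in intron 1 of Etv6. Ets2 peak3354, the nearest to Erg, is at chr16:95761301-95761500 outside protein-coding genes, and Icam2 peak2500, the nearest to Pecam1, is at chr11:106481754-106481953 in intron 1 of Ern1.
Nrp1 peak1830: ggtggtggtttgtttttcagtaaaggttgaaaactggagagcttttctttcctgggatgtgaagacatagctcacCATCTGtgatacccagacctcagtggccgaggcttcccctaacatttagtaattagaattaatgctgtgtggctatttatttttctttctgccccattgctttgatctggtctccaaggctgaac
Eng peak305: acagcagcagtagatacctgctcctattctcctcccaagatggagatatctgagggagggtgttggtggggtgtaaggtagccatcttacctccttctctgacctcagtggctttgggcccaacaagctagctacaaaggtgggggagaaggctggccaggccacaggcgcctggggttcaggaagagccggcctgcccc
Spi1 peak384: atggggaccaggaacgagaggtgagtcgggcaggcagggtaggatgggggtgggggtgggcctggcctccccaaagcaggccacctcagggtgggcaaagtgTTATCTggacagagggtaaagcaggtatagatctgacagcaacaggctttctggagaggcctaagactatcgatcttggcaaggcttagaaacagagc
Spi1 peak385: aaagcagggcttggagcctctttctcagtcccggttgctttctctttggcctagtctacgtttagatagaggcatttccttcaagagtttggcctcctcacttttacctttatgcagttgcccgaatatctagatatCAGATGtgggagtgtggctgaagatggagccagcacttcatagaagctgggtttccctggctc
Etv6 peak1374: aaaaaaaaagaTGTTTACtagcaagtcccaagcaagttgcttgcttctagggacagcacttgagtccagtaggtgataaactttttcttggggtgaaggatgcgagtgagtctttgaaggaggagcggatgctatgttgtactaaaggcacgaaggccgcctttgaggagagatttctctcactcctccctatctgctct
Ets2 peak3354: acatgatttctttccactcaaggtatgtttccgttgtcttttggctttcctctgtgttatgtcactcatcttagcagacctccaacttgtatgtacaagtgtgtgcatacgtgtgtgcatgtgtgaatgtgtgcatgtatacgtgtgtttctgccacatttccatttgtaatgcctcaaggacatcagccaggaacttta
Icam2 peak2500: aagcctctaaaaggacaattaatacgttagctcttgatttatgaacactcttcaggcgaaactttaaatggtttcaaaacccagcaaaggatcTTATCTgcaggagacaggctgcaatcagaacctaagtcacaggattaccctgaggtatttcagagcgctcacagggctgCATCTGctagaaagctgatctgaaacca

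Capitals show an E-box in Nrp1 peak1830 and Spi1 peak385, GATA letters in Spi1 peak384, forkhead letters in Etv6 peak1374, and both GATA letters and an E-box in Icam2 peak2500. The windows of Eng peak305 and Ets2 peak3354 held none of the 8 motifs. Over the 36 list peaks, the 200 bp around the midpoint held the E-box in 6 (16.7%, all peaks 16.4%), GATA in 5 (13.9%, all peaks 11.8%) and forkhead in 3 (8.33%, all peaks 3.14%). TEAD was in 2 (5.56%, all peaks 11.8%), and SOX, RBPJ and ETS were in 1 each, beside 3.22%, 4.60% and 14.0% of all peaks. FOX:ETS was in none of the 36 (all peaks 1.89%). In the 500 bp window ETS letters were in 9 of the 36 list peaks, beside 31.0% of all peaks. The comparison of list peaks with all peaks turned with the window or letters for GATA, the E-box, SOX and FOX:ETS. GATA letters were in 13 of the 36 in 500 bp (all peaks 25.8%) and in 1 in 100 bp (all peaks 6.49%), and the shorter GATAA was in 6 in 200 bp (all peaks 24.5%). In 500 bp the E-box was in 11 (all peaks 35.0%) and SOX in 4 (all peaks 7.07%), and in the whole peak FOX:ETS was in 4 (all peaks 7.47%).

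In VEGF and angiopoietin signalling, 4 of 11 genes had a peak (36.4%, all genes 22.7%), at 1.63 peaks per Mb (all genes 1.48). The median domain of this list was 353960 bp (all genes 90166 bp). Within 100 kb of the TSS, 4 of the 11 had a peak (36.4%, all genes 36.8%), and these were Vegfb, Pgf, Nrp1 and Ptprb. Nrp1 and Nrp2, which encode the neuropilins that serve as VEGF co-receptors, had 4 and 3 peaks in domains of 1321370 and 1409565 bp. Nrp1 peak1830, at 3193 bp from the TSS in its first intron, was 1598 bp wide, more than 92.2% of all peaks. The other 3 Nrp1 peaks were at least 553441 bp upstream, shared with the domain of Pard3. Nrp2 had peaks 124045 bp downstream and 305672 and 764853 bp upstream of its TSS, the upstream ones inside Pard3b. Vegfa, the ligand of FLT1 and KDR, had 2 peaks at 138070 and 154061 bp downstream, past the end of the gene. Ptprb, which encodes a phosphatase that acts on TIE2, had 1 peak in its coding sequence, 30061 bp downstream. The ligand genes Vegfb, Vegfc, Vegfd, Pgf, Angpt1 and Angpt2 and the receptor gene Tie1 had none in their domains.

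Among the hemogenic and blood transcription factors, 8 of 14 genes had a peak (57.1%, all genes 22.7%). The median domain of this list was 104894.5 bp (all genes 90166 bp). With only the peaks wider than the median, 5 of the 14 had a peak, beside 13.0% of all genes. Runx1, which is needed for blood cells to emerge from hemogenic endothelium, had 4 peaks. Runx1 peak3346 was in its intron 6, 191908 bp downstream of the TSS used, and the other 3 were 170123, 611726 and 746355 bp upstream. Gfi1, a repressor that acts with RUNX1 in that step, had 2 peaks, both inside its neighbour Rpap2. Spi1, the myeloid factor PU.1, had 1 peak 13554 bp upstream and 1 peak 5616 bp downstream of the TSS used.

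At 3 of these factor genes a peak lay beside another annotated start of the same gene. Spi1 peak384 was 134 bp from the TSS of another Spi1 transcript. Tcf3, which encodes the E-protein partner of TAL1, had peak2185 inside the gene, 185 bp from a TSS of a Tcf3 transcript and 17174 bp from the one used. Mecom, a zinc finger factor gene active in blood stem cells, had peak573 at 15 bp from a Mecom TSS and 496687 bp from the one used. When the basal domain was drawn around every annotated TSS, a choice made after seeing the data, Spi1, Tcf3 and Mecom were the genes of the 4 lists with a peak in it, and Flt1 the only one of the 10. These are 3 of 66 and 1 of 10 genes, beside 4.72% of all genes under the same rule. Lyl1, the closest relative of Tal1, had 1 peak 5773 bp downstream, which was 486 bp from a TSS of Nfix. Myb and Cbfa2t3, factor genes of blood progenitors, had 1 peak each, 39572 and 37974 bp upstream. Gata1, Gata2, Ldb1, Gfi1b, Klf1 and Hhex had none in their domains. Outside them, a peak lay 6329 bp downstream of the TSS of Klf1, whose domain was 6632 bp, and 28315 bp upstream of Ldb1.

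Among the endothelial transcription factors, 4 of 16 genes had a peak (25%), near the 22.7% of all genes, at 0.573 peaks per Mb of domain (all genes 1.48). With only the peaks wider than the median, 1 of the 16, Foxo1, had a peak, beside 13.0% of all genes. Foxo1, which restrains endothelial growth, had 2, at 182875 and 308538 bp downstream. Etv6, an ETS repressor, had peak1374 at 3177 bp from the TSS. Ets2 had peak3354 at 59325 bp and Hey1, a target of Notch signalling in arteries, had peak563 at 103867 bp, 3123 bp from a TSS of Stmn2. The ETS genes Fli1, Ets1 and Elk3, the SOX genes Sox7, Sox17 and Sox18, and Klf2, Nr2f2, Prox1, Hey2, Bcl6b and Epas1 had none in their domains.

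Among the surface, junction and effector genes, 4 of 25 had a peak (16.0%, all genes 22.7%), at 0.861 peaks per Mb (all genes 1.48). With only the peaks wider than the median, 2 of the 25 had a peak (all genes 13.0%). The single nearest TSS also gave 2 of the 25 (all genes 14.2%). Emcn, which encodes the sialomucin endomucin, had 2 peaks at 206676 and 225057 bp downstream. Eng, a TGF-beta family co-receptor gene, had peak305 in its intron 1 at 9160 bp and peak304 at 22282 bp upstream, inside Ak1. Icam2, an adhesion molecule gene, had peak2500 at 99072 bp upstream, and Dll4, the arterial Notch ligand gene, had peak428 at 16951 bp upstream. The other 21 genes, among them Cldn5, Vwf, Cd34, Kit and Ptprc, had none.

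**Figure D5:**
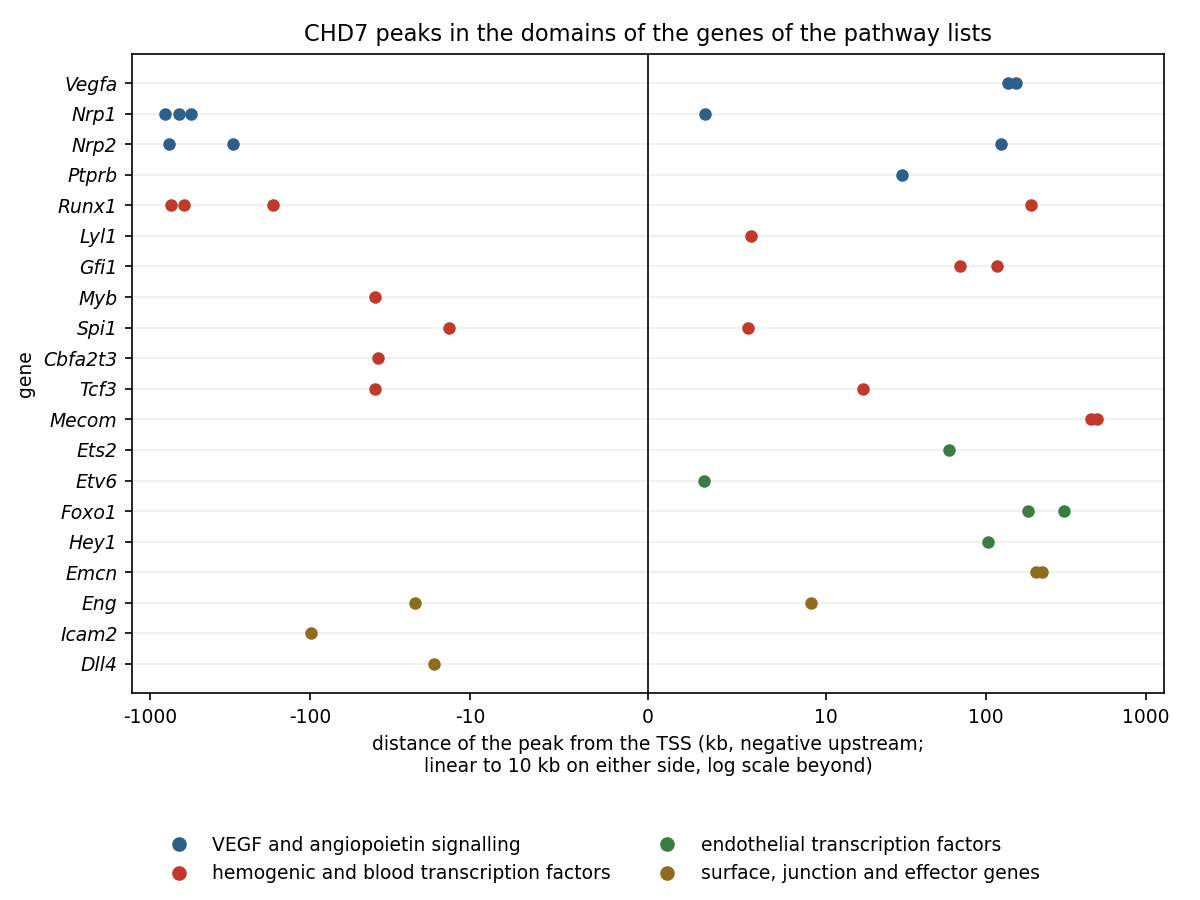
Distance of each of the 36 peaks from the TSS (kb, negative is upstream; linear up to 10 kb on either side and a log scale beyond) for the 20 genes of the 4 lists with a peak, coloured by list. The nearest, at Etv6 and Nrp1, were 3177 and 3193 bp from the TSS, and the farthest was 810175 bp upstream of Nrp1.

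The cardiac transcription factors served as a comparison list from the lineage that these cells were led into. This list was chosen with earlier results of these data known, so it is not an independent contrast. The authors had already reported CHD7 peaks at Isl1, Hand1, Hand2 and Tbx5, and none at Mef2c. Of 10 genes, 7 (70.0%) had a peak, beside 22.7% of all genes, with 12 peaks and 1.66 peaks per Mb, near the 1.48 per Mb of all genes. They were Gata6 with 3 peaks, Gata4, Tbx5 and Hand2 with 2 each, and Isl1, Hand1 and Myocd with 1 each. Nkx2-5, Tbx20 and Mef2c had none. The median domain of this list was 529565 bp, longer than the 246374 bp of Flt1, Kdr and the other 8 regulators, and within 100 kb of the TSS 4 of the 10 cardiac genes had a peak, beside 2 of the 10 regulators and 36.8% of all genes. How much of the difference in counts goes with domain length was not tested.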

How the data were processed

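CUT&RUN libraries of CP cells with anti-CHD7, IgG and input, 3 replicates each, were processed by the authors. Reads were trimmed (fastp 0.20.1), aligned to mm10 (BWA 0.7.17.4) and deduplicated by molecular identifiers, and peaks were called per sample against IgG with MACS2 2.1.2. The calling threshold is not given in the sources used here. The deposited values are start and end positions in bp of the final peaks, with no other unit. Sequencing reads of any group, controls included, were not used here.

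Starts were read as counted from 0. Peaks were placed on GRCm38.p6, the assembly of mm10, with 1 TSS for each protein-coding gene of GENCODE M21, taking coding transcripts first, then APPRIS level, then spliced length. GREAT's curated domains were not used. Masked bases are the lower-case bases of the RefSeq genome. The functions were tested on simulated data, where all 200 genes and all 200 motifs were recovered. Python 3.11.15, pysam 0.24.0, matplotlib 3.10.9 and samtools 1.23.1 were used.

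The 10 genes and the lists were chosen with earlier results of these data known. By rule the text names the 10 genes, other genes sharing their peaks, their neighbours and, from each list, the genes with a basal peak and the 3 with the most peaks, with ties. Other genes were named after their values were seen. No tests were made, and no leave-one-out was possible because the list is joined over replicates. Alternatives were other association rules, extensions, TSSs, peak sets and motif windows.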

Additional observations from a re-analysis of the deposited data

How the results depend on the processing

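Flt1 was the 1 gene of the 10 with a peak in 11 of a first 13 alternatives. The exceptions were the basal domain alone and any TSS within 100 kb. The basal domain gave 0 genes (3.16% of all genes), 0 peaks and 0 peaks per Mb (all genes 5.32 per Mb). TSSs within 100 kb gave 2 genes, Flt1 and Etv2, beside 36.8% of all genes. The number of peaks moved from 2 to 1 with the single nearest TSS, the 2 nearest TSSs, an extension up to 100 kb and the peaks wider than the median of 703 bp. With the wider peaks the rate was 0.302 peaks per Mb for the 10 genes and 0.737 for all genes, and with lincRNA genes also limiting domains it was 0.910 for the 10 and 1.59 for all genes.

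Of 4 alternatives chosen after seeing the data, TSSs within 250 kb gave 6 genes and 7 peaks, beside 61.4% of all genes. TSSs within 500 kb gave 9 genes and 20 peaks, beside 77.3% of all genes. The gene body and the basal domain around every annotated TSS gave 1 peak each, at Flt1, beside 8.09% and 4.72% of all genes.

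With the wider peaks, 13.0% of all genes had a peak. Genes with a peak numbered 5 of 14 for hemogenic and blood factors, 1 of 16 for endothelial factors and 2 of 25 for surface and junction genes. The VEGF and angiopoietin list stayed at 4 of 11 and the cardiac list at 7 of 10. With the single nearest TSS, genes with a peak numbered 2 of 25 for surface and junction genes, beside 14.2% of all genes. The other lists then stood at 4 of 11 for VEGF and angiopoietin signalling, 6 of 14 for hemogenic and blood factors, 3 of 16 for endothelial factors and 5 of 10 for cardiac factors. The basal domain around every TSS left 3 hemogenic and blood factors and 0 genes in each other list, the cardiac one included, beside 4.72% of all genes. TSSs within 100 kb gave 4 of 10 cardiac genes, beside 36.8% of all genes. For the other lists they gave 4 of 11 for VEGF and angiopoietin signalling and 9 of 14 for hemogenic and blood factors. Endothelial factors stood at 4 of 16 and surface and junction genes at 5 of 25, in part with other genes than under the domain rule. These last choices were made after seeing the data.

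The member peaks with a motif moved from 0 to 1 for GATA with GATAA (all peaks 24.5%). The same move occurred for TEAD in 500 bp (all peaks 26.3%) and in the whole peak (all peaks 39.1%). The other motif counts stayed at 0. The causes were not tested. No paired analysis was possible because the list is joined over replicates and no result comes from a test. Leaving out a replicate and a stricter calling threshold could not be run, since the list holds no values per replicate and no scores, and the number of genes limits the precision.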

Other observations

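The X chromosome held 14 of the 3761 peaks, 0.0819 per Mb, while the 19 autosomes held from 1.04 to 2.38 per Mb. Of 948 protein-coding genes on X, 21 (2.22%) had a peak in their domain, beside 4956 of 20780 autosomal genes (23.8%). The 10 regulators are all autosomal, but 3 genes of the pathway lists are on X, and none of them had a peak. These are Vegfd, a ligand of FLT4, Gata1, the erythroid GATA factor, and Apln, the ligand of the apelin receptor. Their nearest peaks were 2117935 bp, 32051724 bp and 4412698 bp upstream of the TSS. Without them the shares with a peak were 4 of 10 for VEGF and angiopoietin signalling, 8 of 13 for hemogenic and blood factors and 4 of 24 for surface and junction genes. The cause of the low number on X was not tested.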
